A study of Homo sapiens with 4 samples.

Results

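The genes described are 10 transcripts of heme breakdown and cellular iron handling, HMOX1, HMOX2, BLVRA, BLVRB, FTH1, FTL, TFRC, NCOA4, IREB2 and FLVCR1, chosen by symbol from the 28395 rows of a gene count table. All 10 were present, and 9 passed the filter on low counts. They were measured by mRNA sequencing in A375 cells, an established human melanoma line with an activating BRAF mutation, labelled wild type. Exposure lasted 6 h, to 0.01% ozonated olive oil, an oil that carries ozonides and peroxides, or, in the control cells, to 0.01% olive oil. Each group had 2 libraries, numbered 1 and 2, and the medium of both held serum. Nothing in the labels says whether the libraries came from separate cultures, so the p-values reflect only how far these libraries vary, possibly for technical reasons.

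Heme oxygenases open the heme ring and release iron, carbon monoxide and biliverdin, which biliverdin reductases turn into bilirubin. HMOX1 is the inducible enzyme, held down by the heme-binding repressor BACH1 and switched on by NRF2 (gene NFE2L2) with small MAF partners when cells meet oxidants or electrophiles, and HMOX2 is the constitutive one. Freed iron is stored in ferritin, a shell of FTH1 (heavy) and FTL (light) subunits, iron bound to transferrin enters through the receptor encoded by TFRC, and NCOA4 carries ferritin to lysosomes for its release. Iron regulatory proteins, one of them encoded by IREB2, bind iron-responsive elements, hairpins in the untranslated regions (UTRs) of some of these mRNAs. At low iron they block ferritin translation through a hairpin before the coding sequence and stabilise TFRC mRNA through several hairpins after it. FLVCR1 encodes an exporter described for heme and also for choline. Read counts measure mRNA levels, and so do not show whether ferritin translation changed.

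The hairpins are shown because they set the ferritin and transferrin receptor mRNAs apart from the other members. They were found in GENCODE release 29 transcripts (GRCh38, 1 coding transcript per gene) by their letters in transcript direction. These were a C, any 5 bases, CAGTG and any 1 base. The 5 bases before the loop had to pair with the 5 bases after it, with G opposite T also counted as a pair. Capitals mark the bulged C and the 6 bases of the loop, with T for U.
FTH1, 5' UTR, chr11:61967575-61967601, minus strand: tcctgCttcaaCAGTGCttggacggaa
FTL, 5' UTR, chr19:48965336-48965362, plus strand: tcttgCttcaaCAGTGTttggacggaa
TFRC, 3' UTR, chr3:196050980-196051006, minus strand: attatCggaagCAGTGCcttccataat
TFRC, 3' UTR, chr3:196050576-196050602, minus strand: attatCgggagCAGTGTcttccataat
TFRC, 3' UTR, chr3:196050511-196050537, minus strand: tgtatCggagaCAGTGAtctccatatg
TFRC, 3' UTR, chr3:196050464-196050490, minus strand: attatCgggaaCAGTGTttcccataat
Among the 10 members, 3 held a match: 1 each in the 5' UTRs of FTH1 and FTL and 4 in the 3' UTR of TFRC. Over all coding genes, 0.112% of 18700 5' UTRs and 0.532% of 19542 3' UTRs held one. The FTH1 and FTL elements were identical at 25 of 27 bases, with C3T and C17T as the differences (FTH1 base first, positions from 1 at the 5' end of the printed bases). A missing match says only that these letters and pairs are not in the transcript examined. Of 7 other mRNAs known for an iron-responsive element, 3 held a match, so the search does not find every such element.

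Library totals ranged from 22245807 to 27772480 counts. Under either oil, number 1 and number 2 lay far apart: principal component 1 (66.4% of the variance) divided them, and component 2 (21.3%) divided the oils. Each difference between the oils is therefore also given within number 1 and within number 2, where 1 library stands against 1 and no test is possible. Of 10 melanoma markers, 5 (SOX10, MITF, S100B, S100A1 and MIA) were at 1 CPM or more in all libraries, SOX10 from 278 to 361 CPM, while the pigment genes PMEL, MLANA, TYRP1 and DCT lay at 1.35 CPM or less and TYR at 0. The markers fixed for other cell types summed to 184 and 135 CPM with the ozonated oil and 171 and 129 CPM with olive oil, nearly all of it in KRT10, CD68 and KRT14, while CD3E and HBB were at 0. Their part in the results below was not tested. In bulk RNA, fewer cells of a type and less RNA per cell cannot be told apart.

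HMOX1 showed the widest difference among the members. Values are CPM, counts scaled to a common library size after TMM normalisation. HMOX1 (Entrez gene 3162, chr22:35381096-35394207, GRCh38) lay at 347 CPM in ozonated library 1 and 1046 CPM in ozonated library 2, against 38.8 CPM in olive oil library 1 and 79.4 CPM in olive oil library 2. The groups did not overlap, with the ozonated libraries above, and number 2 was the higher one under each oil. The difference was 8.93-fold within number 1 and 13.2-fold within number 2. The 2 numbers differed in HMOX1 by a log2 value of 1.59 under the ozonated oil and 1.03 under olive oil, number 2 over number 1. Ordered by CPM among the 14841 tested genes, HMOX1 held rank 450 and rank 92 in the ozonated libraries, and rank 5595 and rank 3063.5 (a tie) in the olive oil libraries. Its log2 difference ranked 4 among all tested genes within number 1, 5 within number 2 and 3 in the fit over both.

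In that fit the HMOX1 log2 fold change came to 3.56 ± 0.66 (SE). The quasi-likelihood test of edgeR gave an unadjusted p of 0.00312 and, after Benjamini-Hochberg adjustment over all tested genes, an adjusted p of 0.9998. The call depended on the tool, as DESeq2 (adjusted p = 0.0127) and the edgeR exact test (adjusted p = 0.000248) called HMOX1 higher, and over the alternatives without a block its adjusted p ran from 0.000248 to 1. Without ozonated library 2 the log2 fold change was 2.55 and without ozonated library 1 it was 4.14, while it was 3.13 without olive oil library 1 and 4.17 without olive oil library 2.

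By the same test, 0 of the 9 tested members passed at an adjusted p of 0.05, where 0% of all tested genes passed. DESeq2 called 1 member (HMOX1) and 0.438% of all tested genes, the edgeR exact test 1 member (HMOX1) and 0.236% of all tested genes, and limma-voom 0 members and 0% of all tested genes. Unadjusted, 3 of 9 members (HMOX1, FTH1 and FTL) were under 0.05 against 3.84% of all tested genes. HMOX1, FTH1, FTL and IREB2, or 4 of 9, had both ozonated libraries above both olive oil libraries, against 15.3% of all tested genes, and 0 of 9 lay below without overlap, against 15.7%. HMOX1 was the 1 member of 9 at least 2-fold higher within both numbers, against 0.337% of all tested genes. Within both numbers, 6 of 9 members were higher (31.6% of all tested genes), 2 were lower (31.1%) and 1, BLVRA, went opposite ways. The members were chosen with earlier results of these data known, so these shares are descriptions. With 2 libraries per group an exact permutation test of a single gene cannot go below a two-sided p of 0.333.

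**Figure D1:**
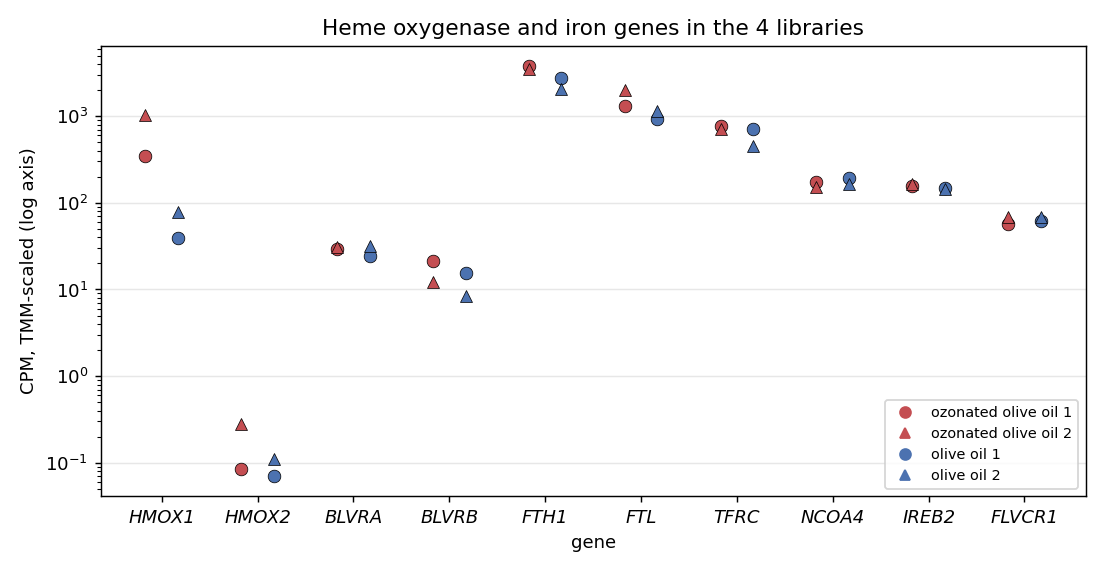
CPM of each of the 10 members in each library on a log axis, ozonated olive oil in red on the left and olive oil in blue on the right of each gene, circles for number 1 and triangles for number 2. HMOX1 spans 38.8 to 1046 CPM, while HMOX2 stays under 0.3 CPM throughout.

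The second heme oxygenase gene could not be read in these counts. HMOX2 (Entrez gene 3163, chr16:4474736-4510347, GRCh38) had 2 and 6 counts in the ozonated libraries and 2 and 3 counts in the olive oil libraries. It fell under the low-count filter and was not tested. A count of 0 allows up to 0.108 to 0.135 CPM in these libraries (3 counts, counting error only), and HMOX2 lay at 0.0851 and 0.278 CPM in the ozonated libraries and, with olive oil, at 0.0708 and 0.111 CPM. Its neighbours were low as well: each of the 10 protein-coding genes from GLIS2 to C16orf96 (chr16:4314761-4600758), HMOX2 among them, had a total of 0 to 93 counts over the 4 libraries. TFAP4 just before that stretch had 3660 and UBALD1 just after it 3641. The low run includes DNAJA3, a mitochondrial co-chaperone gene, with 14 counts. Why the whole stretch is low was not tested, and the counts give no level for HMOX2 against HMOX1.

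The biliverdin reductases lay near the olive oil level or above it by much less than HMOX1. BLVRB, which encodes biliverdin IX beta reductase, had 21.1 and 12.2 CPM in the ozonated libraries 1 and 2, against 15.4 and 8.31 CPM in olive oil libraries 1 and 2. It was higher with the ozonated oil within both numbers, with log2 differences of 0.45 and 0.55, but the groups overlapped because number 1 was the higher one under each oil. Its fit gave 0.49 ± 0.41 (SE; unadjusted p = 0.294 by edgeR), and this ran from 0.04 without ozonated library 1 to 0.999 without olive oil library 1. BLVRA, the gene of the main adult biliverdin reductase, had 29.1 and 30.8 CPM with the ozonated oil and 24.1 and 31.5 CPM with olive oil. Its log2 differences were 0.27 within number 1 and -0.03 within number 2, and the groups overlapped.

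Both ferritin subunit genes lay higher with the ozonated oil, without overlap. FTH1 (chr11:61964285-61967634), whose protein oxidises iron on its way into the shell, had 3753 and 3484 CPM in the ozonated libraries, against 2729 and 2072 CPM in the olive oil libraries. That is 1.38-fold within number 1 and 1.68-fold within number 2, and the fitted value on the log2 scale was 0.59 ± 0.16 (SE; unadjusted p = 0.0152, adjusted p = 0.9998 by edgeR). FTL (chr19:48965309-48966879), the light subunit that favours mineral formation, had 1298 and 2014 CPM in the ozonated libraries, against 928 and 1151 CPM in the olive oil libraries. Within the numbers FTL was 1.40-fold and 1.75-fold higher, with a fitted value of 0.67 ± 0.24 (SE; unadjusted p = 0.0411, adjusted p = 0.9998 by edgeR). Leaving out a library gave from 0.41 to 0.80 for FTH1 and from 0.32 (without ozonated library 2) to 0.95 (without ozonated library 1) for FTL.

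FTH1 and FTL together came to 5051 and 5498 CPM with the ozonated oil and to 3657 and 3223 CPM with olive oil. By mean level over the 4 libraries, FTH1 ranked 14 and FTL ranked 50 among all 28395 rows. Both genes have processed pseudogenes in the genome. The 1 FTH1 pseudogene row found by its symbol held 0.0329% to 0.0609% of the FTH1 count, and the 1 FTL pseudogene row held 0 counts. Reads shared with such copies may have been dropped or assigned to the parent gene. FTH1 also overlaps BEST1, which had 11 and 17 counts with the ozonated oil and 8 and 12 with olive oil.

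NCOA4, the ferritin cargo receptor, had 172 and 152 CPM in the ozonated libraries, against 192 and 165 CPM in the olive oil libraries. It was lower within both numbers, with log2 differences of -0.16 and -0.12, but the groups overlapped and the fitted value of -0.14 ± 0.13 (SE) did not pass edgeR's test.

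**Figure D2:**
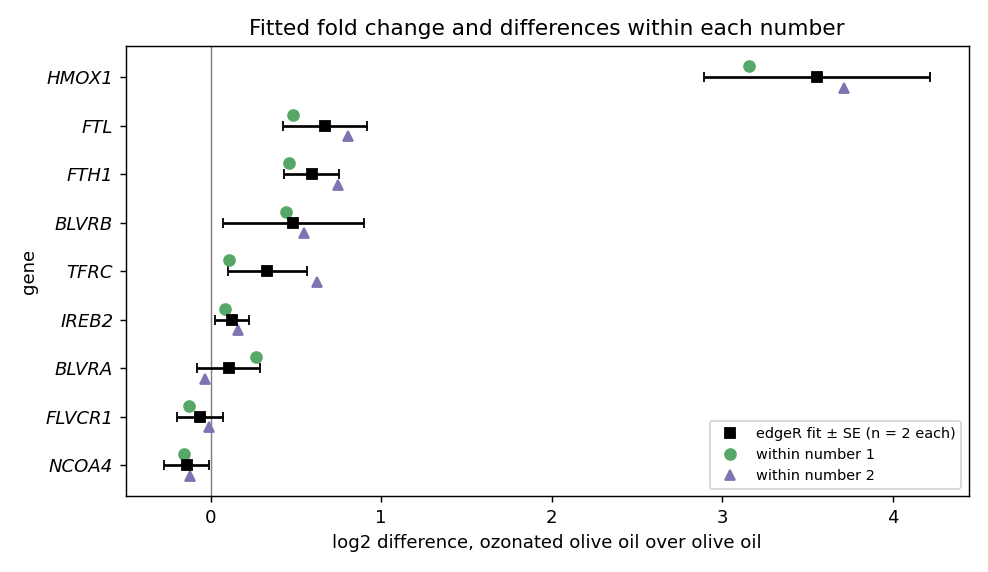
Log2 difference of ozonated olive oil over olive oil for the 9 tested members: black squares are the edgeR fit with its SE (n = 2 each), green circles the difference within number 1 and purple triangles within number 2. HMOX1 stands at 3.56, the ferritin genes at 0.59 and 0.67, and 6 of 9 members are above 0 within both numbers.

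The gene of iron import differed between the oils mainly in the libraries numbered 2. TFRC (chr3:196049284-196082090), the transferrin receptor, had 773 and 708 CPM in the ozonated libraries 1 and 2, against 716 and 459 CPM in olive oil libraries 1 and 2. Olive oil library 2 lay apart from the other 3 libraries, and the groups overlapped. The log2 difference was 0.11 within number 1 and 0.63 within number 2, and that difference between the numbers rests on 1 library against 1 and was not tested. The fitted value of 0.33 ± 0.23 (SE; unadjusted p = 0.205 by edgeR) was 0.05 without olive oil library 2 and 0.69 without olive oil library 1.

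IREB2, which encodes iron regulatory protein 2, had 158 and 163 CPM in the ozonated libraries, against 149 and 146 CPM in the olive oil libraries. The groups did not overlap, yet the difference was small, 1.06-fold within number 1 and 1.12-fold within number 2, with a fitted log2 fold change of 0.12 ± 0.10 (SE). The protein is known to be controlled by degradation, which mRNA counts do not show. FLVCR1 had 57.2 and 68.2 CPM in the ozonated libraries, against 62.5 and 68.5 CPM in the olive oil libraries, with log2 differences of -0.13 and -0.01 and overlapping groups. Neither gene passed edgeR's test, and the FLVCR1 value of -0.06 turned to 0.01 without olive oil library 2 and to 0.06 without ozonated library 1.

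Ratios between members of the same library do not depend on the scaling between libraries, and were taken per kilobase of the GENCODE transcript so that genes of unequal length can be set side by side. The ratio of FTH1 to FTL was 2.07 and 1.24 in the ozonated libraries 1 and 2, against 2.10 and 1.29 in the olive oil libraries 1 and 2. It followed the number and hardly the oil: the ozonated ratio was 0.983 of the olive oil ratio within number 1 and 0.961 within number 2. Heavy and light ferritin mRNA thus differed between the oils by nearly the same factor within each number, while the balance of the subunits differed between the numbers.

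The ratio of TFRC to FTH1 was 0.0495 and 0.0488 with the ozonated oil, against 0.0631 and 0.0533 with olive oil. Both ozonated ratios lay below both olive oil ratios, at 0.785 of the olive oil ratio within number 1 and 0.917 within number 2. The ratio of FTH1 to NCOA4 was 41.0 and 43.0 with the ozonated oil and 26.7 and 23.5 with olive oil. Ferritin heavy chain mRNA was thus higher relative to the mRNA of its cargo receptor in both ozonated libraries.

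HMOX1 reached 0.129 and 0.250 of the FTL level per kilobase in the ozonated libraries, against 0.0202 and 0.0332 in the olive oil libraries. Relative to BLVRB, HMOX1 stood at 7.90 and 41.0 per kilobase in the ozonated libraries 1 and 2, against 1.20 and 4.58 in the olive oil libraries 1 and 2. Against BLVRA the ratios were 7.62 and 21.7 with the ozonated oil and 1.03 and 1.61 with olive oil. In the olive oil libraries HMOX1 and BLVRA mRNA were thus closer to each other than in either ozonated library. These ratios carry no test.

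**Figure D3:**
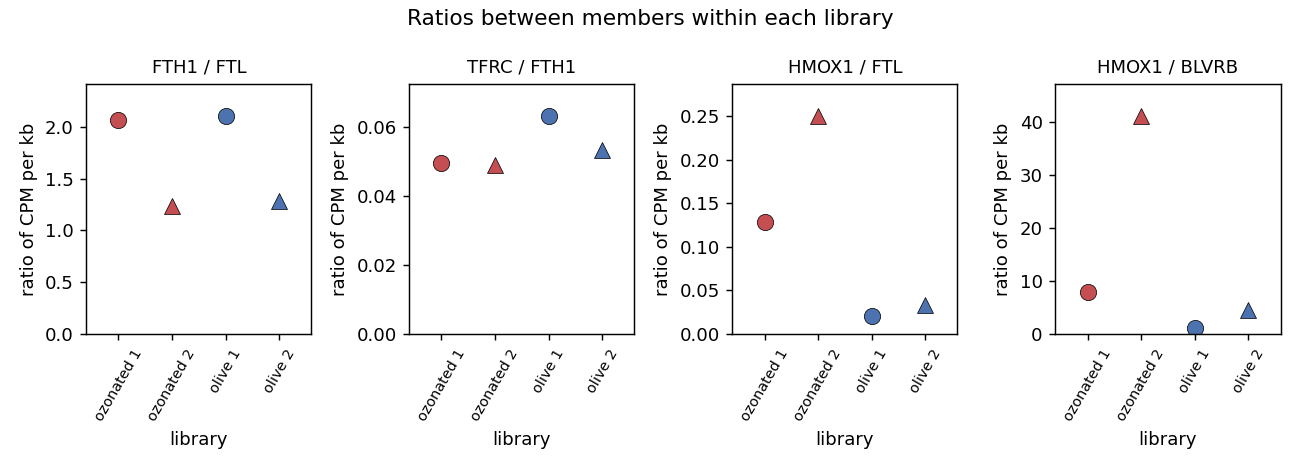
Ratios of CPM per kilobase within each library for 4 pairs of members, ozonated libraries in red on the left and olive oil libraries in blue on the right, circles for number 1 and triangles for number 2, each axis starting at 0. FTH1 over FTL separates the numbers (2.07 and 2.10 against 1.24 and 1.29), and HMOX1 over FTL separates the oils.

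The bases before the transcription start are shown for FTL and TFRC, as genes of iron storage and import whose letters can be compared. RefSeq promoter sequences (GRCh38.p14) matched 8 of the 10 members in 11 windows, without HMOX1 and FTH1. The 250 bases before each start were searched on both strands. Capitals mark matches to ACGTG, the core of the site bound by the hypoxia factor HIF, and to TATAAA, the TATA box.
FTL, chr19:48965059-48965308, plus strand: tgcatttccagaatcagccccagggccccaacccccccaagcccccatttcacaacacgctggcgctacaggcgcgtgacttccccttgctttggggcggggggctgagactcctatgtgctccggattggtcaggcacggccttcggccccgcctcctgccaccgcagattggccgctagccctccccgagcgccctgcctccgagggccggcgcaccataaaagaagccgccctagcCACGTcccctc
TFRC, chr3:196082091-196082340, minus strand: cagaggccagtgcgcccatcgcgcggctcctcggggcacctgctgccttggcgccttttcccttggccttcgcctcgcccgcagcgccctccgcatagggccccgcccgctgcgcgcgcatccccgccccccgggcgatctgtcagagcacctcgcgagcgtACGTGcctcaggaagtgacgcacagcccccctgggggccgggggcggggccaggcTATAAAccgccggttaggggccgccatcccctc
The letters ACGTG occurred in 3 of the 11 windows (1 each of FTL, TFRC and HMOX2), or 27.3%, and in 18.5% of all 35116 promoter windows. In TFRC the match begins 88 bases before the start and in FTL, on the other strand, 11 bases before it. TGANNNNGC, the core of the antioxidant response element used by NRF2, was in 0 of the 11 windows and in 35.2% of all windows. No match says only that these letters are not in the window, and a match does not show a site in use.

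Genes around the members were described by 7 lists. By edgeR's quasi-likelihood test 0 of the 89 tested genes of these lists passed. An unadjusted p under 0.05 was found for 4 of the 89, or 4.49%, near the 3.84% of all tested genes. With DESeq2 1 of the 89 passed (MAFG), with the edgeR exact test 0 and with limma-voom 0. Of all tested genes, 0.438%, 0.236% and 0% passed with these tools, in the same order. The median log2 fold change over all tested genes was 0.00. Within both numbers 31.6% of all tested genes were higher and 31.1% lower, the shares to set beside the counts of each list. The list of regulators of HMOX1 and heme sensors had a median of 0.35 (0.18 within number 1 and 0.23 within number 2), and within both numbers 10 of its 13 members were higher and 1 lower. Without ozonated library 2 its median was 0.16 and without olive oil library 2 it was 0.48. Earlier results of these data on some of its members were known, so the list is no independent evidence of its direction.

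MAFG, a small MAF partner of NRF2 and BACH1 on DNA, had 155 and 159 CPM in the ozonated libraries, against 110 and 108 CPM in the olive oil libraries. The groups did not overlap, and the fitted value was 0.53 ± 0.10 (SE) with an unadjusted p of 0.00351 by edgeR. The other small MAF genes lay at 62.8 and 82.0 CPM (MAFF) and 66.1 and 77.9 CPM (MAFK) with the ozonated oil, against 51.2 and 40.1 CPM (MAFF) and 51.8 and 34.0 CPM (MAFK) with olive oil. Unadjusted, these 3 of the 13 genes of the list were under 0.05, beside 3.84% of all tested genes. MAFK is named after its values were seen, as are BACH1 and NFE2L2. BACH1, the repressor of HMOX1, had 48.2 and 72.4 CPM with the ozonated oil and 40.1 and 44.2 CPM with olive oil, and NFE2L2, the NRF2 gene, had 128 and 136 CPM with the ozonated oil and 113 and 123 CPM with olive oil. Neither passed the test, with fitted values of 0.52 ± 0.22 and 0.16 ± 0.11 (SE). NFE2L1, the most abundant member and a relative of NRF2, had 0.08 ± 0.18.

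Heme synthesis genes stood at a median of -0.01 over 9 tested members, 2 higher and 3 lower within both numbers. ALAS1, the rate-limiting enzyme of heme synthesis outside red cells, had 134 and 119 CPM with the ozonated oil, against 120 and 99.5 CPM with olive oil, and overlapped between the groups. FECH, which inserts the iron, had 0.12 ± 0.12 and CPOX, the most abundant member, 0.04 ± 0.12 as fitted log2 fold changes. The erythroid enzyme gene ALAS2 had 1 count in all.

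Heme transport and binding genes had a median of 0.10 over 11 tested members, 6 higher and 3 lower within both numbers. Without ozonated library 1 the median turned to -0.07. PGRMC1, a heme-binding membrane protein, had 118 and 109 CPM with the ozonated oil and 95.9 and 88.3 CPM with olive oil, without overlap. Its fitted value of 0.31 ± 0.11 (SE) had an unadjusted p of 0.0428 by edgeR, the only one under 0.05 in the list. ABCB6, a porphyrin transporter, had 0.28 ± 0.13 and the endocytic receptor gene LRP1, the most abundant member, 0.37 ± 0.38. Fitted values in the list ran from -0.74 to 0.37. Without overlap, 2 of the 11 lay above and 3 below, beside 15.3% and 15.7% of all tested genes.

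Genes of iron uptake, reduction, transport and export had a median of -0.03 over 14 tested members of 21, 4 higher and 6 lower within both numbers, and the median ran from -0.28 (without olive oil library 2) to 0.31 with a library left out. HFE, a partner of the transferrin receptor, had 11.7 and 9.81 CPM with the ozonated oil and 7.79 and 8.27 CPM with olive oil. STEAP1 of the metalloreductase family had 6.76 and 4.35 CPM with the ozonated oil and 9.81 and 6.75 CPM with olive oil. The most abundant member, the iron and zinc importer gene SLC39A14, had a fitted value of -0.03 ± 0.13.

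Iron sensing, chaperone and ferritin turnover genes had a median of 0.05, with 8 of 12 tested members higher and 0 lower within both numbers. TAX1BP1, an autophagy receptor that takes part in ferritin turnover, had 189 and 206 CPM with the ozonated oil and 159 and 173 CPM with olive oil, without overlap, and a value of 0.25 ± 0.11 (SE). The iron chaperone genes PCBP1 and PCBP2 had 0.18 ± 0.10 and 0.13 ± 0.13.

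Other mRNAs known for an iron-responsive element had a median of 0.11 over 6 tested members, 2 higher and 1 lower within both numbers, and -0.06 without ozonated library 1. CDC42BPA, the most abundant, had 0.09 ± 0.17. The iron exporter gene SLC40A1 (ferroportin) had 10 and 10 counts with the ozonated oil and 8 and 8 with olive oil, too few to read a difference.

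Iron-sulfur cluster assembly genes had a median of -0.04 over 26 tested members, 6 higher and 13 lower within both numbers, or 50.0% lower, where 31.1% of all tested genes were lower. CIAPIN1, an electron donor of cytosolic assembly, had -0.23 ± 0.10, and the abundant mitochondrial chaperone gene HSPA9 had 0.05 ± 0.11.

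**Figure D4:**
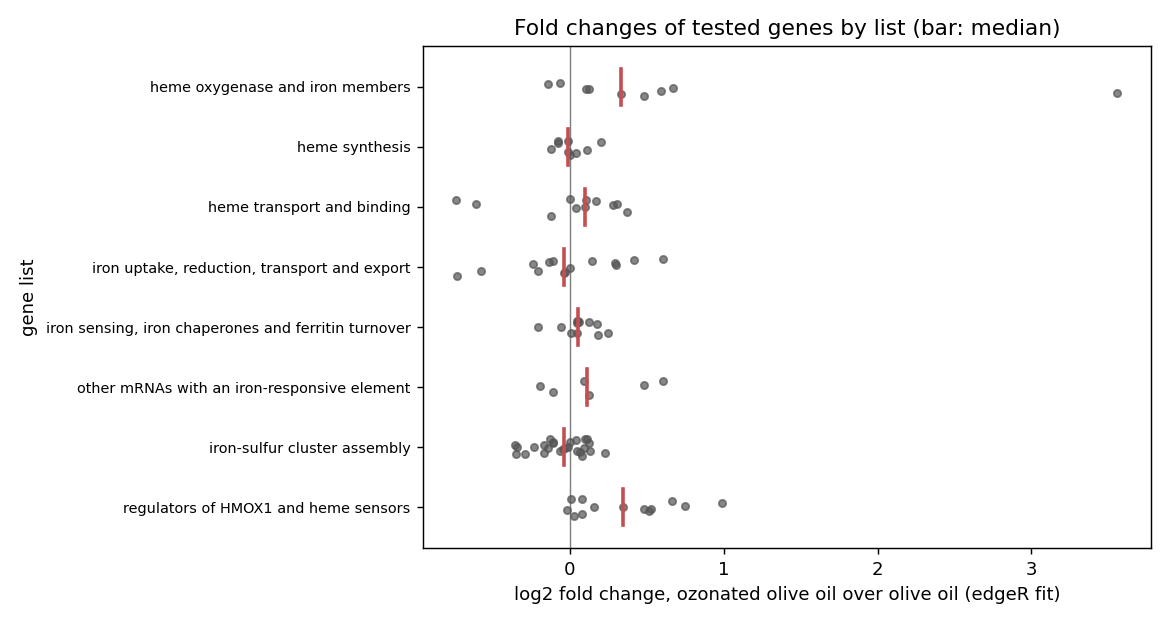
Fitted log2 fold change of ozonated olive oil over olive oil for each tested gene (points) of the 10 members and of 7 lists around them, with the median of each as a red bar. HMOX1 at 3.56 is far to the right of every other point, and the medians of the lists run from -0.04 to 0.35.

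The genes whose pattern was most like that of HMOX1 were sought by the Euclidean distance of log2 CPM over the 4 libraries, each gene centred on its mean, among tested genes with a mean log2 CPM of at least 2. The 5 nearest were FOS (distance 1.26), EGR1 (1.39), ZFP36 (1.55), NMRAL2P (1.69) and INSIG1 (1.79). FOS had 13.2 and 125 CPM with the ozonated oil and 3.68 and 4.94 CPM with olive oil. The difference of FOS was 3.54-fold within number 1 and 25.0-fold within number 2. NMRAL2P had 16.3 and 20.9 CPM with the ozonated oil and 2.66 and 7.50 CPM with olive oil, which is 5.97-fold within number 1 and 2.77-fold within number 2. They were chosen for this likeness, so their values are descriptions.

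**Figure D5:**
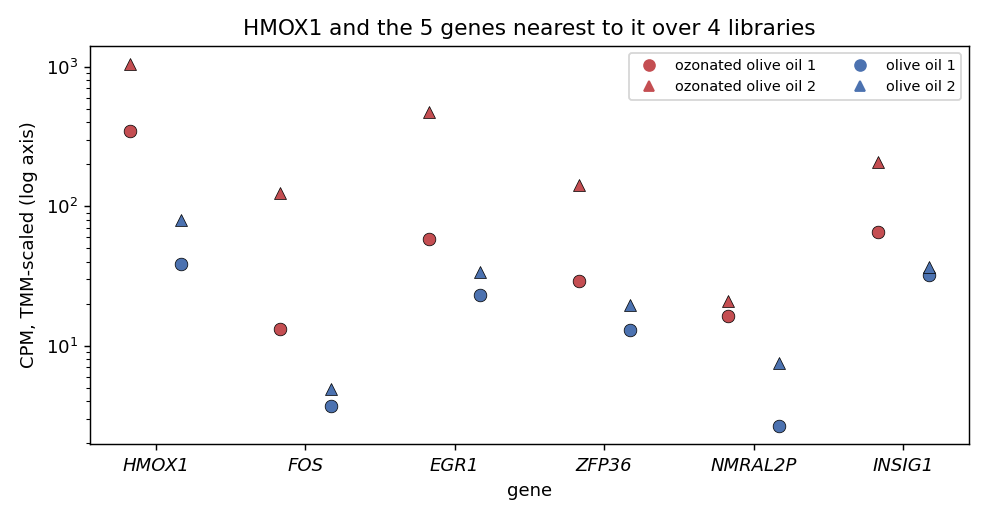
CPM of HMOX1 and of the 5 genes nearest to it on a log axis, ozonated olive oil in red on the left and olive oil in blue on the right of each gene, circles for number 1 and triangles for number 2. HMOX1, FOS, EGR1, ZFP36 and INSIG1 have the larger fold within number 2, and NMRAL2P within number 1.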

How the data were processed

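Messenger RNA was counted per gene in 4 libraries of A375 cells. The authors deposited raw counts, whole numbers not normalized, with 1 column per library. Their tools, per the submitters' processing notes, included HISAT2 2.1.0 and SAMtools 1.9 for reads on build hg38, besides StringTie 1.3.4d and edgeR. How reads were counted, with which strand setting and annotation, is not given in the sources used here. Overlapping genes on opposite strands may share reads. Rows without a symbol (617) were kept.

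The analysis used edgeR 4.0.16 in R 4.3.3: filterByExpr by group, TMM factors, quasi-likelihood test without a block, Benjamini-Hochberg adjustment over 14841 genes, threshold 0.05. SEs come from the fold change and its F statistic. Within-number differences use log2 CPM with a prior count of 2. The code was tested on simulated counts that held no difference between the numbers, unlike these libraries. Lengths and hairpins come from GENCODE 29 (1 APPRIS-ranked coding transcript per gene), loci and promoters from RefSeq (GRCh38.p14). Alternatives were other scalings and filters, DESeq2 1.42.0, limma-voom (limma 3.58.1), a block for the replicate number, the exact test of edgeR and each library left out.

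Members, lists and tests were chosen with earlier results of these data known. Named are all members and, in each list, the 2 genes of smallest p and the 1 of highest CPM, and the 5 genes nearest to HMOX1. A few genes that this rule selects are not reported here. Floors cover counting error only, while the SEs also take in the spread between libraries.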

Additional observations from a re-analysis of the deposited data

How the results depend on the processing

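The labels give no pairing by number. Same-numbered libraries deviated together (correlation of deviations 0.672 over genes). With 2 libraries per group the crossed value is its negative by construction. With the replicate number as a block, edgeR called 841 genes (5.67% of all tested genes), DESeq2 360 (2.43%) and limma-voom 884 (5.96%). The limma-voom fit with a block was added after seeing the data. In each of these 3 fits 4 of 9 tested members were called higher, HMOX1, FTH1, FTL and TFRC. Of the 89 tested list genes, 7, 2 and 9 were called higher, in the same order of tools. HMOX1 then had log2 fold changes of 3.45 (edgeR), 3.44 (DESeq2) and 3.50 (limma-voom). Without a block, DESeq2 called 65 genes (0.438% of all tested genes), 1 member and 1 list gene, with 3.56 for HMOX1. The edgeR exact test called 35 genes (0.236%) and 1 member, again with 3.56. What makes the tools differ was not tested.

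The other scalings and filters and limma-voom without a block called 0 genes, and HMOX1 stayed between 3.44 and 3.56. With a library left out, 0 to 4 genes, 0 members and 0 list genes were called, and HMOX1 ran from 2.55 to 4.17. Each such fit mixes the oil with the number, and takes the spread of its lone library from the other group. The cause of those shifts was not tested. With a library left out, BLVRA ran from -0.075 (without olive oil library 1) to 0.31, and FLVCR1 from -0.20 to 0.058 (without ozonated library 1), with 0.0063 without olive oil library 2. Counts of members higher within both numbers (6) and higher without overlap (4) were the same under every scaling tried, and 4 to 6 members were higher without overlap with a library left out (added after seeing the data), where 31.6% to 34.1% of all tested genes were.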

Other observations

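LCN2, a siderophore-binding protein on the iron uptake list and named after its values were seen, had 3870 and 13 counts in the ozonated libraries 1 and 2 and 4776 and 4 counts in the olive oil libraries 1 and 2. It lay at 165 and 0.601 CPM with the ozonated oil and at 169 and 0.148 CPM with olive oil, so that it was abundant in number 1 and close to the limit of detection in number 2 under both oils. Among the tested members, BLVRB, FTH1, TFRC and NCOA4 were also lower in number 2 under both oils. HMOX1, FTL, BLVRA and FLVCR1 were higher there, and IREB2 went opposite ways under the oils. No explanation of the difference between the numbers was tested.

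FLVCR1-DT, a transcript read divergently from FLVCR1 and also named after its values were seen, had 40 and 29 counts in the ozonated libraries and 69 and 66 counts in the olive oil libraries. It lay at 1.70 and 1.34 CPM with the ozonated oil and at 2.44 and 2.45 CPM with olive oil, without overlap. Of all tested genes, 15.7% lay lower with the ozonated oil without overlap.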
